A study of Mus musculus with 20 samples.

Results

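The loss of Wwox alone in young mouse epidermis was measured by setting 3 libraries from K14cre;Wwoxfl/fl mice (WKO) against 3 libraries from wild-type mice (WT). These 6 libraries, chosen by their column names, are part of 20 libraries in the study, and all genes in the count table entered the comparison. Both groups were cells positive for the tdTomato reporter, sorted from dissociated epidermis of mice aged 100 to 120 days, and 5 ng of RNA went into each total RNA library. In WKO mice the keratin 14 promoter drives Cre recombinase in keratinocytes and removes floxed Wwox there. The labels give the genotype of the controls only as wild type, so whether those mice carry Cre, what switches on their reporter, and the strain and sex of any mouse cannot be told from them. Young epidermis deleted for p53 (K14cre;p53fl/fl, PKO, n = 3) or for both genes (K14cre;Wwoxfl/fl;p53fl/fl, DKO, n = 3) and WT epidermis of at least 400 days (n = 2) are used below as points of reference. Each library is numbered as a biological replicate in its title.

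Wwox encodes a cytoplasmic protein with WW domains, which bind proline-rich motifs of partners such as p73, Jun, Runx2 and Dishevelled, and a short-chain oxidoreductase domain. It lies across a common fragile site of the genome and is often lost in carcinomas. The epidermis is a layered epithelium: basal keratinocytes, which carry keratins 5 and 14 and hemidesmosomes, divide and move up, switch to keratins 1 and 10, and are held together by desmosomes until they cornify. Resident T cells, Langerhans cells and melanocytes live among them.

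The 6 libraries differed in more than genotype. Total counts were 12842557 to 16627171 in WT and 11930153 to 14418110 in WKO, mitochondrial ribosomal RNA took 23.3% to 38.9% and 15% to 30.2% of them, and 23962 to 25735 against 20675 to 21977 genes had at least 1 count. WT 1 had 0.218 CPM (a count scaled to the size of its library) of Xist, which silences an X chromosome, and clear levels of Y-linked genes. The other 5 libraries had 359 to 871 CPM of Xist. WT 2 also carried the Y-linked genes Ddx3y and Eif2s3y, at 4.08 and 1.84 CPM, against 48.0 and 25.1 CPM in WT 1. In WT 3 these 2 genes were at 0.113 and 0.0564 CPM, and in every WKO library at 0. The origin of the Y-linked reads in WT 2 was not tested. Sex was therefore mixed in WT, and WT 1 also held the highest summed level of macrophage, monocyte and neutrophil markers. The libraries labelled PKO young 2 and 3 kept Trp53 at 63.2% and 55.8% of the WT young mean, and DKO young 3 kept Wwox at 78.6% and Trp53 at 61.4%. Libraries above 50% for a gene that their label gives as deleted are called libraries against their labels below. That name rests on this level alone. Why these 3 libraries kept such levels, and whether their labels are wrong, was not tested. They are not part of the WKO and WT groups but share the fit that estimates the spread.

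Wwox (ENSMUSG00000004637), the targeted gene, stood at 10.03, 9.25 and 8.74 CPM in WT and 1.29, 0.137 and 1.14 CPM in WKO. Every WKO library lay below every WT library, and the WKO mean was 9.17% of the WT mean (log2 fold change -3.45 with an SE of 0.87, adjusted p = 0.0233). The exact two-sided permutation test over the 6 libraries gave p = 0.1, the smallest that 3 against 3 allows. The adjusted p rose above the threshold of 0.05 when WT 1, WT 2, WKO 2 or WKO 3 was left out (0.06, 0.0573, 0.0711 and 0.0676), with log2 fold changes of -3.37, -3.45, -2.93 and -3.70. WKO 2 had only 2 Wwox counts, against 19 and 16 in WKO 1 and 3.

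Trp53, the gene of p53, was not changed past the threshold, with 30.7, 32.5 and 40.0 CPM in WT and 40.3, 48.5 and 38.8 CPM in WKO (log2 fold change 0.30, SE 0.66, adjusted p = 0.769; exact permutation p = 0.2). Of the 20 tested genes nearest to Wwox along the chromosome in RefSeq order, 2 fell and 0 rose. These 2 were Vat1l, the nearest one on one side, with 0.218, 4.01 and 2.26 CPM in WT and 0.068, 0 and 0 CPM in WKO, and Cdyl2, which encodes a chromodomain protein, with 11.6, 10.3 and 10.4 CPM in WT and 5.78, 2.39 and 1.92 CPM in WKO. The median log2 fold change of the 20 was 0.05, and 10% of them passed the threshold against 21.4% of all genes tested.

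Across the genome the difference was wide. Of 16627 genes tested, 3563 (21.4%) passed an adjusted p of 0.05 in edgeR's quasi-likelihood test with Benjamini-Hochberg adjustment. In WKO 2177 genes (13.1%) were higher and 1386 (8.34%) were lower, of which 1478 and 1136 by at least 2-fold. The median log2 fold change of all genes tested was -0.025. The 2 groups of libraries did not overlap for 8579 genes (51.6%), and 3550 of the 3563 called genes were among them. Lack of overlap in a called gene named below therefore adds little to its call.

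**Figure D1:**
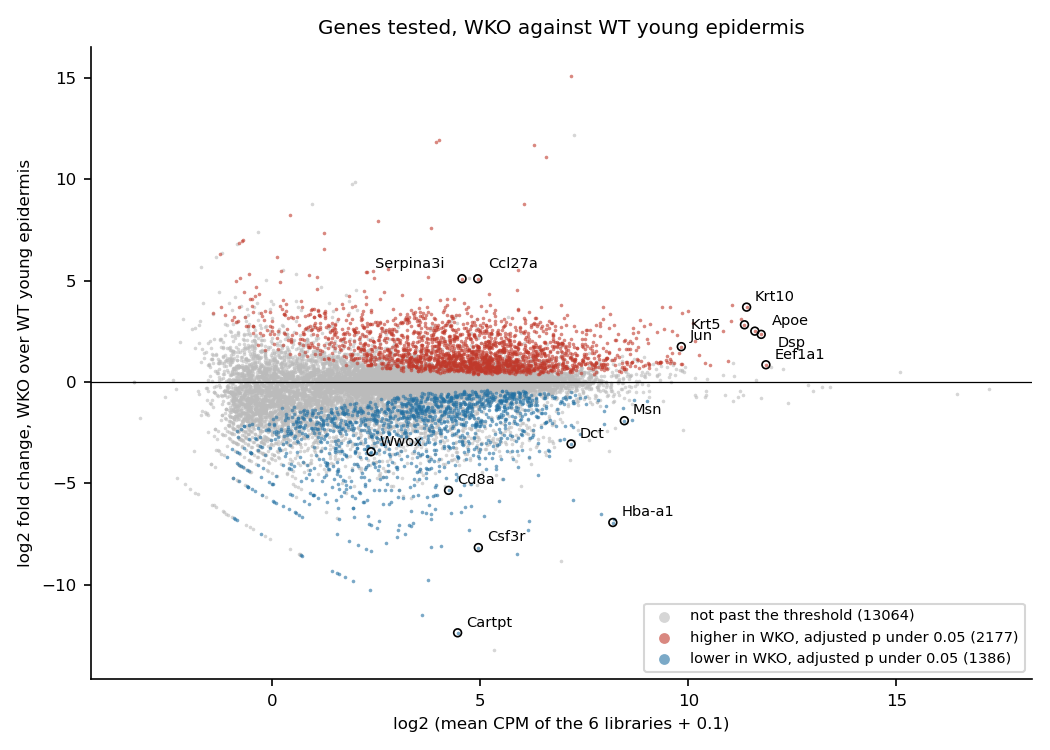
Each point is a tested gene, with the log2 of its mean CPM over the 6 libraries (plus 0.1) on the x axis and its log2 fold change, WKO over WT, on the y axis. Red points (2177) were higher and blue points (1386) lower in WKO at an adjusted p under 0.05, and keratin genes stand at the upper right while the hemoglobin gene Hba-a1 stands at the lower right.

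The number of calls depended on single libraries. It was 1088 without WT 1, 1228 without WT 2, 893 without WKO 2 and 965 without WKO 3, but 3513 without WKO 1, and no gene was called with WT 1 and WKO 1 both left out (0 in edgeR, with 5238 genes at an unadjusted p under 0.05). The list counts that follow shrink in the same way, and the range with 1 library left out is given beside those of the main lists.

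Genes of the basal layer were higher in WKO. Of the basal keratinocyte list, 15 of 22 tested members rose and 0 fell (68.2% called against 21.4% of all genes), with a median log2 fold change of 1.94 against -0.025 for all genes. The count of risen members was 6 to 15 with a library left out, lowest without WT 1. Krt5, the basal type II keratin, was at 494, 590.3 and 855 CPM in WT and 2929.6, 6241 and 4563 CPM in WKO (log2 fold change 2.82 with an SE of 0.55, adjusted p = 0.0128). Its partner Krt14, whose promoter drives the Cre transgene, was at 387, 481 and 525 CPM in WT and 2575, 5211 and 3384 CPM in WKO. Every WKO library held several times as much of both keratins as any WT library. Krt15, a keratin of basal and hair follicle stem cells, rose in the same way, from 352, 488 and 709 CPM in WT to 3866, 4257 and 5173 CPM in WKO, a log2 change of 3.10 with an SE of 0.56 and an adjusted p of 0.0126.

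Genes that anchor basal cells to the basement membrane rose in part. In the integrin and hemidesmosome list 12 of 27 members rose and 3 fell (55.6% called against 21.4% of all genes), with 6 to 12 risen when a library was left out (lowest without WT 1). Lamb3, which encodes a laminin chain of the epidermal basement membrane, and Col17a1, a transmembrane collagen of hemidesmosomes, had log2 fold changes of 2.80 and 2.92. For Col17a1 the levels were 195, 228 and 346 CPM in WT against 1362, 2380.3 and 2091 CPM in WKO, with no overlap. Itga1, a collagen-binding integrin chain that T cells and mesenchymal cells also carry, went the other way, with 33.9, 26.7 and 24.2 CPM in WT and 5.31, 5.88 and 3.78 CPM in WKO (log2 fold change -2.51 with an SE of 0.43, adjusted p = 0.0126).

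Suprabasal genes rose in part. Of 36 tested members, 15 rose and 1 fell (44.4% called against 21.4% of all genes), with a median of 1.49 and 4 to 15 risen with a library left out (lowest without WT 1). Krt10, the main keratin of differentiating cells, was at 202, 553 and 407 CPM in WT and 5574, 4175 and 5325 CPM in WKO (log2 fold change 3.69 with an SE of 0.79, adjusted p = 0.0151). Krt77 went from 115, 397 and 342 CPM in WT to 4748, 3207 and 3967 CPM in WKO, and Spink5, which encodes a protease inhibitor of the cornified layer, from 6.82, 12.2 and 8.74 CPM in WT to 113, 75.7 and 145 CPM in WKO. For all 3 genes the lowest WKO library was well above the highest WT library. The member that fell was Prdm1, the gene of the transcription factor Blimp1, which acts in keratinocyte terminal differentiation and in T cells and other leukocytes (36.8, 24.4 and 22.2 CPM in WT against 5.31, 1.91 and 1.07 CPM in WKO).

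Epithelial junction genes gave the highest share of calls among the epithelial lists, 30 of 41 risen and 0 fallen, or 73.2% against 21.4% of all genes. Their median log2 fold change was 1.99, and 13 to 26 rose with a library left out (lowest without WKO 3). Dsp, which encodes desmoplakin, the desmosomal plaque protein that binds keratin filaments, was at 659, 1477 and 1254 CPM in WT and 5561, 5098 and 6655 CPM in WKO, a log2 change of 2.35 with an SE of 0.53 and an adjusted p of 0.0172. The plakophilins Pkp1 and Pkp3, plakoglobin (Jup) and desmocollin 3 (Dsc3) rose by 2.75, 1.999, 2.03 and 2.51 on the log2 scale. Tjp3 of tight junctions stood at 8.29, 11.02 and 8.91 CPM in WT and 47.1, 46.5 and 49.97 CPM in WKO, with no overlap. Esrp1 and Ovol2, regulators of epithelial splicing and epithelial identity, were higher by 1.99 and 2.53.

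Ratios of keratinocyte genes within a library were also taken. They were computed after the values were seen, from CPM that are not per length. The ratio of Krt10 to Krt14 was 0.521, 1.15 and 0.775 in WT and 2.16, 0.801 and 1.57 in WKO, so that the groups overlapped (exact two-sided permutation p = 0.2 on the log2 ratio). The summed junction list divided by the summed basal list was 0.462, 0.951 and 0.805 in WT and 0.926, 0.583 and 0.705 in WKO (exact p = 1). Both ratios overlap, although each of their parts was higher in every WKO library.

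**Figure D2:**
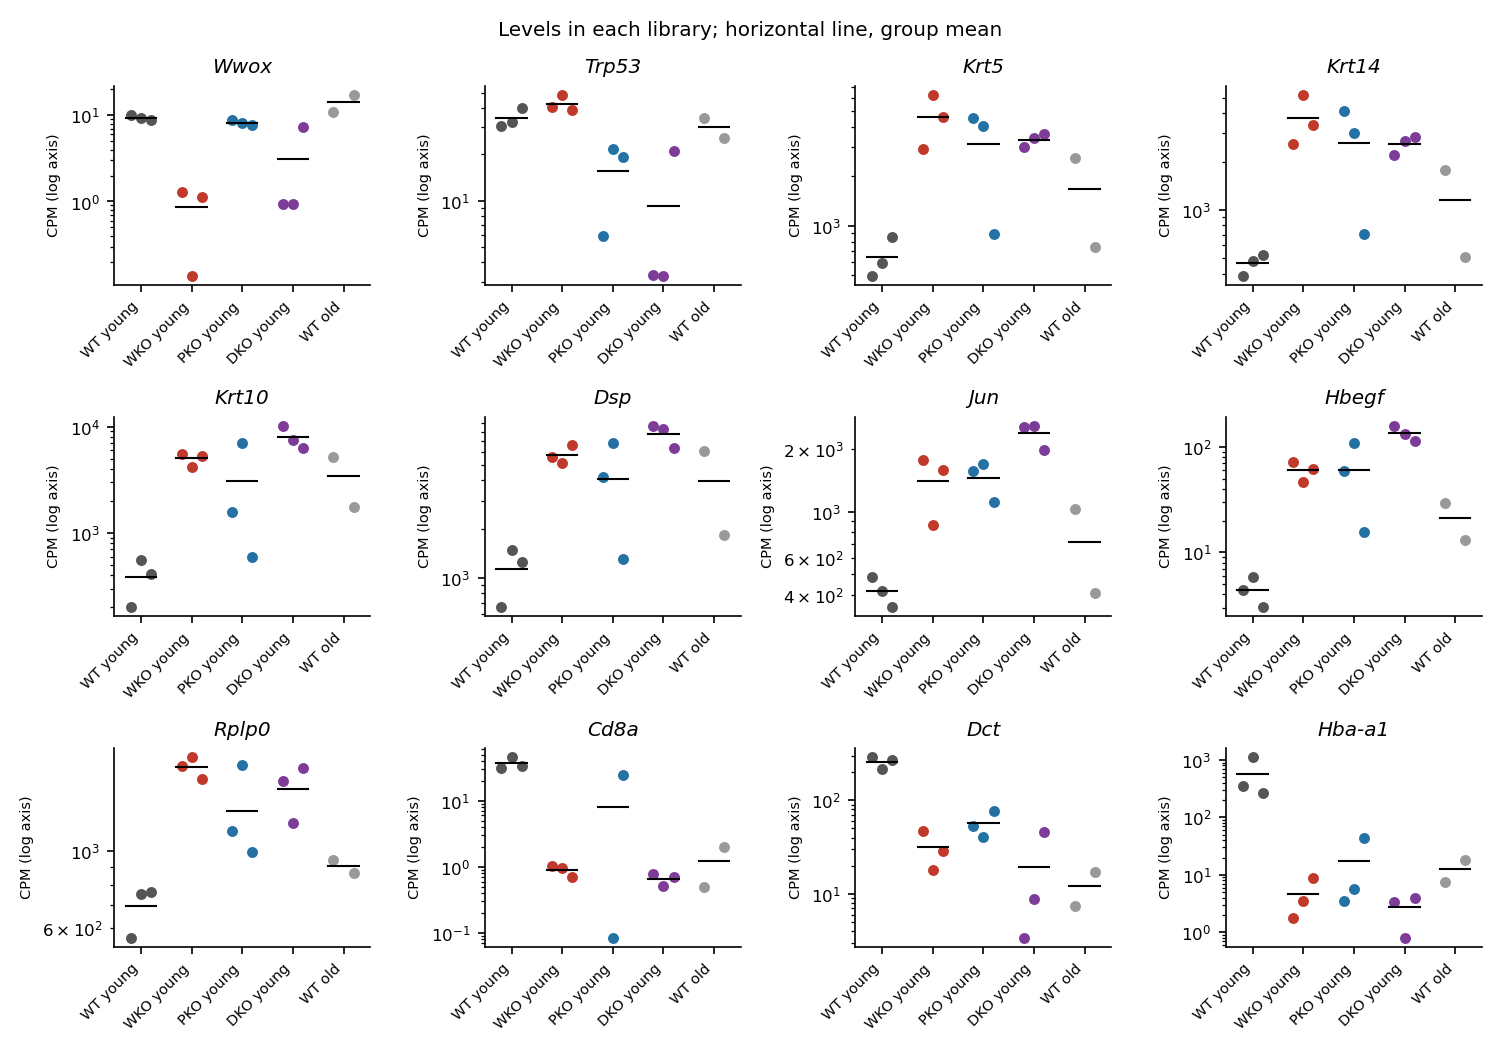
Each panel gives the level of 1 gene (CPM, log axis) in every library of WT, WKO, PKO and DKO young and WT old epidermis, with the group mean as a line. Krt5, Krt14, Krt10 and Dsp were low in all 3 WT young libraries, in PKO young 3 and, apart from Krt10 and Dsp, in old WT 2, and Cd8a, Dct and Hba-a1 were high in the WT young libraries.

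Markers of T cells, pigment cells and red cells moved in the opposite direction. In bulk libraries, fewer cells of a type and less RNA per cell cannot be told apart, and CPM are shares of a library, so a rise of one group of genes lowers the share left to the rest. The summed level of the T and NK cell list was 3654, 2710 and 2793 CPM in WT and 1371, 137.3 and 80.55 CPM in WKO. All 25 tested members had lower fitted values in WKO, and 7 passed the threshold. That is 28%, against 8.34% of all genes that were lower and 21.4% called either way. The count was 22 without WKO 1, 0 without WKO 2 or WKO 3, and 1 to 2 without a WT library. WKO 1 stood between the groups in this list, with 224 CPM of Cd3e, a chain of the T cell receptor complex, against 15.2 and 9.77 in WKO 2 and 3 and 394 to 507 in WT. Foxp3, the gene of the regulatory T cell factor, was at 29.1, 33.5 and 13.5 CPM in WT and 0.34, 0.205 and 0.285 CPM in WKO (log2 fold change -6.48 with an SE of 1.33, adjusted p = 0.0141). Cd8a was at 30.8, 45.8 and 33.5 CPM in WT and 1.02, 0.957 and 0.713 CPM in WKO, and both genes were far lower in all 3 WKO libraries than in any WT library.

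Red cell genes were lower in WKO. Of 11 tested members of the erythrocyte list 10 fell, or 90.9% against 8.34% of all genes, 4 to 10 with a library left out (lowest without WKO 2), and the list sums were 1286, 3657 and 921.7 CPM in WT against 57.41, 76.64 and 80.12 CPM in WKO. Hba-a1, an alpha globin gene with a near-identical copy, Hba-a2, that can share its reads, was at 353, 1119.6 and 262 CPM in WT and 1.77, 3.49 and 8.91 CPM in WKO. Alas2, which encodes the red cell enzyme that starts heme synthesis, was at 36.0, 96.5 and 24.0 CPM in WT and 0.068, 0.273 and 0.642 CPM in WKO (log2 fold change -7.29 with an SE of 1.12, adjusted p = 0.0126). WT 2 was the highest library for both genes.

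Pigment cell genes also fell: 10 of 14 of the melanocyte and Schwann list, or 71.4% against 8.34% of all genes, with 1 to 9 when a library was left out (lowest without WKO 2). Dct, a melanin synthesis enzyme, was at 291, 215 and 273 CPM in WT and 47.1, 18.2 and 28.9 CPM in WKO (log2 fold change -3.06 with an SE of 0.78, adjusted p = 0.0239), and tyrosinase (Tyr) at 35.1, 33.3 and 30.8 CPM in WT and 9.66, 4.65 and 6.56 CPM in WKO. The WT values of both genes lay close together and above every WKO value. Cartpt, which encodes a neuropeptide precursor, was at 25.1, 47.1 and 58.9 CPM in WT and 0, 0 and 0 CPM in WKO; against a floor of 3 counts over the WKO group it was at least 631-fold lower.

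The list of macrophages, monocytes and neutrophils had 9 of 18 members lower, 50% against 8.34% of all genes, but 1 library carried much of it: the list sum was 1877, 255.5 and 317.7 CPM in WT and 236.2, 31.72 and 26.73 CPM in WKO, and 1 member passed without WT 1, WKO 2 or WKO 3. Csf3r, the neutrophil growth factor receptor, was at 166, 10.5 and 8.17 CPM in WT and 0.34, 0 and 0.285 CPM in WKO. WT 1 held most of it, although WT 2 and WT 3 also lay above the WKO libraries. WT 2 carried Y-linked reads at a low level as well, and whether its value is independent of WT 1 was not tested. The Langerhans and dendritic cell list gave sums of 2214, 788.7 and 1184 CPM in WT and 2764, 515 and 368.3 CPM in WKO, which overlap. Its 2 risen members were Epcam, also an epithelial gene, and H2-Eb1, and Ccr7 fell. The other class II genes H2-Aa and H2-Ab1 had log2 fold changes of -0.93 and -0.013 in edgeR (adjusted p = 0.528 and 0.99). The labels give no strain, so strain and loss of Wwox cannot be told apart for H2-Eb1. Fibroblast sums (2994, 1407 and 2655 CPM in WT, 3864, 1137 and 1264 CPM in WKO) and endothelial sums overlapped as well, with 0 fibroblast marker lower past the threshold and Postn the 1 that rose (4.76% called). Single members leaned lower: 19 of 21 fibroblast and 18 of 21 endothelial members had negative fitted values, with medians of -1.16 and -1.66. Without WKO 1, 9 endothelial, 5 Langerhans and dendritic and 1 fibroblast members were called lower, beside 1525 of all 17299 genes. Cd207 of the Langerhans list was at 69.24 CPM in WKO 1 but 7.042 and 3.564 in WKO 2 and 3, against 5.125, 9.999 and 14.15 in WT. Mast cell markers gave 2 of 4 lower, muscle and adipocyte markers 4 of 14, and B cell and Merkel cell markers 0 of 8 and 0 of 3. How far the mix of cells takes part in the changes of other genes was not tested.

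**Figure D3:**
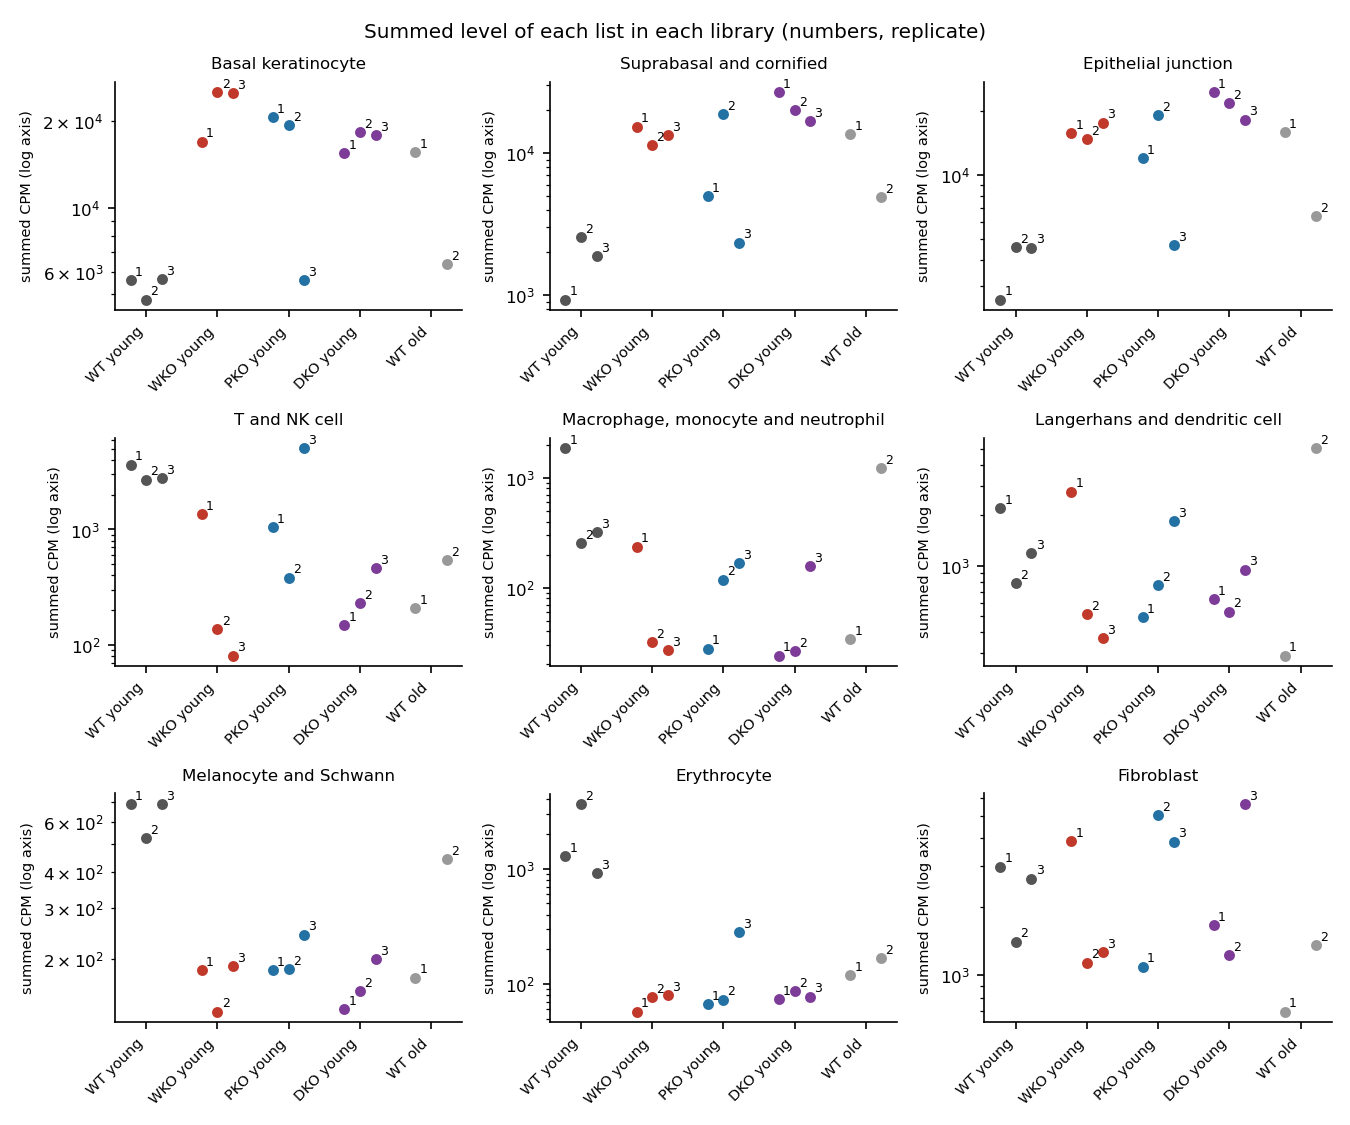
Each panel gives the summed level of a gene list (CPM, log axis) in every young library and in old WT epidermis, with replicate numbers beside the points. The 3 WT young libraries were lowest or near lowest for the basal, suprabasal and junction lists and high for the T and NK cell, melanocyte and erythrocyte lists, together with PKO young 3 for T and NK cells.

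The other epidermis groups show where WT and WKO stand. Summed over the basal list, WT young libraries reached 5601, 4794 and 5662 CPM and WKO libraries 16990, 25290 and 25060 CPM. The PKO young libraries were at 20640, 19440 and 5608 CPM, the DKO young libraries at 15460, 18360 and 17870 CPM and the old WT libraries at 15650 and 6364 CPM. WT young thus stood with PKO young 3 and old WT 2 at the low end, and WKO with the rest at the high end. For the erythrocyte list, the lowest WT young sum was 922 CPM, and the highest among the other epidermis libraries was 283 CPM in PKO young 3.

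Among the 12 largest rises with non-overlapping groups, several were far higher in WKO 2 than in the other WKO libraries. The milk casein genes Csn1s2a, Csn2 and Csn1s1 were among them: Csn2 was at 0.0545, 0 and 0.169 CPM in WT and 13.7, 547 and 12.3 CPM in WKO, and at 43.2 and 8497 CPM in old WT. Cyp2g1, a cytochrome P450 gene, was likewise highest in WKO 2 (0, 0 and 0.395 CPM in WT against 3.47, 63.3 and 16.7 CPM in WKO), as was Bex1 (0.218, 0.748 and 1.18 CPM in WT against 3.26, 73.2 and 1.78 CPM in WKO). Others were even across WKO. Serpina3i and Serpina3h, from a multigene family of serine protease inhibitors whose members can share reads, were at 0.763, 0.952 and 2.26 CPM in WT against 45.6, 40.2 and 51.5 CPM in WKO and 2.45, 2.93 and 9.13 CPM in WT against 104, 106 and 131 CPM in WKO.

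Ccl27a, the chemokine that keratinocytes use to draw skin-homing T cells, was at 0.763, 1.56 and 2.88 CPM in WT and 42.4, 43.9 and 92.2 CPM in WKO (log2 fold change 5.09 with an SE of 0.74, adjusted p = 0.0126), with all WKO libraries far above WT. Mettl7b, a methyltransferase gene, was at 0.164, 0.136 and 0.564 CPM in WT against 8.98, 12.9 and 9.12 CPM in WKO, a log2 change of 5.11 with an SE of 0.72 and an adjusted p of 0.0126. The gut and endocrine peptide gene Pyy was low in absolute level but higher in each WKO library, at 0, 0.408 and 0.226 CPM in WT against 6.87, 16.4 and 4.35 CPM in WKO. Serpinb3b, a squamous epithelial protease inhibitor, was at 0.164, 0.68 and 0 CPM in WT against 27.3, 6.70 and 5.92 CPM in WKO, highest in WKO 1. H2-Eb1 of MHC class II was at 4.14, 0.884 and 2.48 CPM in WT against 305, 20.99 and 28.2 CPM in WKO, again led by WKO 1. For H2-Eb1, strain and loss of Wwox cannot be told apart.

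The 12 largest falls were, apart from Cartpt, mostly genes with a dominant value in WT 1. Rsad2, an interferon-induced antiviral gene, was at 321, 26.7 and 1.92 CPM in WT and 0.204, 0.342 and 0.428 CPM in WKO. Fcgr1, an Fc receptor of macrophages, was at 89.9, 7.28 and 1.35 CPM in WT and 0.068, 0.205 and 0.0713 CPM in WKO. WT 1 exceeded the other 2 WT libraries by over 10-fold in both. Trem1, Myh1 and Fpr2 had 0 counts in all WKO libraries, which makes them at least 145-fold, 84.6-fold and 76-fold lower when the WKO mean is set to a floor of 3 counts over the group. Csf3r, Slc12a1, Tnn, Ms4a4c, Ifit1bl1 and Klra2 completed the list, with WT 1 highest in each. What sets WT 1 apart, and whether WT 2 is independent of it for these genes, was not tested.

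The most abundant genes that rose, besides the keratins and Dsp, were Eef1a1 and Apoe. Eef1a1, the elongation factor that brings aminoacyl tRNA to the ribosome, was at 2437, 2718 and 2817 CPM in WT and 4741, 4844 and 4840.3 CPM in WKO (log2 fold change 0.85 with an SE of 0.25, adjusted p = 0.0362). Apoe, a lipoprotein that keratinocytes, macrophages and other cells make, was at 891, 809 and 1075 CPM in WT and 4405, 6267 and 5176 CPM in WKO (log2 fold change 2.51 with an SE of 0.39, adjusted p = 0.0126). Neither gene overlapped between groups, which the rule for naming them required, and the spread within WKO was small for Eef1a1. The abundant genes that fell included cytoskeletal genes shared by many cell types. Msn (moesin) was at 813, 451 and 405 CPM in WT and 214, 127 and 107 CPM in WKO. Flna (filamin A) was at 716, 459.9 and 417 CPM in WT against 282, 309 and 283 CPM in WKO, and Tln1 (talin) at 660.0, 429 and 376 CPM in WT against 247, 179 and 187 CPM in WKO. Macf1, a linker of actin and microtubules, was at 683, 839.9 and 509 CPM in WT against 421, 273 and 372 CPM in WKO. WT 1 was the highest library for Msn, Flna and Tln1. Akap13 and D10Wsu102e had log2 fold changes of -1.42 and -1.21.

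Genes of protein synthesis rose almost as a block. In the cytoplasmic ribosomal protein list 35 of 40 members rose and 0 fell (87.5% called against 21.4% of all genes), with a median of 0.96 on the log2 scale (9 to 32 with a library left out, lowest without WT 1). Rplp0 of the ribosomal stalk was at 563, 752 and 766 CPM in WT and 1753, 1864 and 1611 CPM in WKO. Its WKO values lay within a narrow band above all WT values. Many of these genes have processed pseudogenes that can take their reads, and Rps18, at 32.6, 36.6 and 38.3 CPM in WT and 537, 345 and 499.8 CPM in WKO, stood apart from the rest of the list. It lies close to H2-K1, and since the labels give no strain, strain and loss of Wwox cannot be told apart for it.

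Nuclear genes of oxidative phosphorylation rose by less: 17 of 34 passed the threshold, 0 fell (50% called against 21.4% of all genes), and the median log2 fold change was 0.55 (2 to 13 risen with a library left out, lowest without WKO 2). Uqcrc1, a core subunit of complex III, was at 57.0, 65.6 and 75.7 CPM in WT and 128, 150.5 and 128 CPM in WKO. Cox4i1 of complex IV was at 86.6, 90.7 and 90.8 CPM in WT and 162, 172 and 147 CPM in WKO. Both were higher in every WKO library. The 13 genes encoded by the mitochondrial genome gave no call, with all 13 fitted values negative and a median of -0.73; their sums were 17580, 25580 and 41790 CPM in WT and 9435, 17160 and 29590 CPM in WKO, which overlap.

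**Figure D4:**
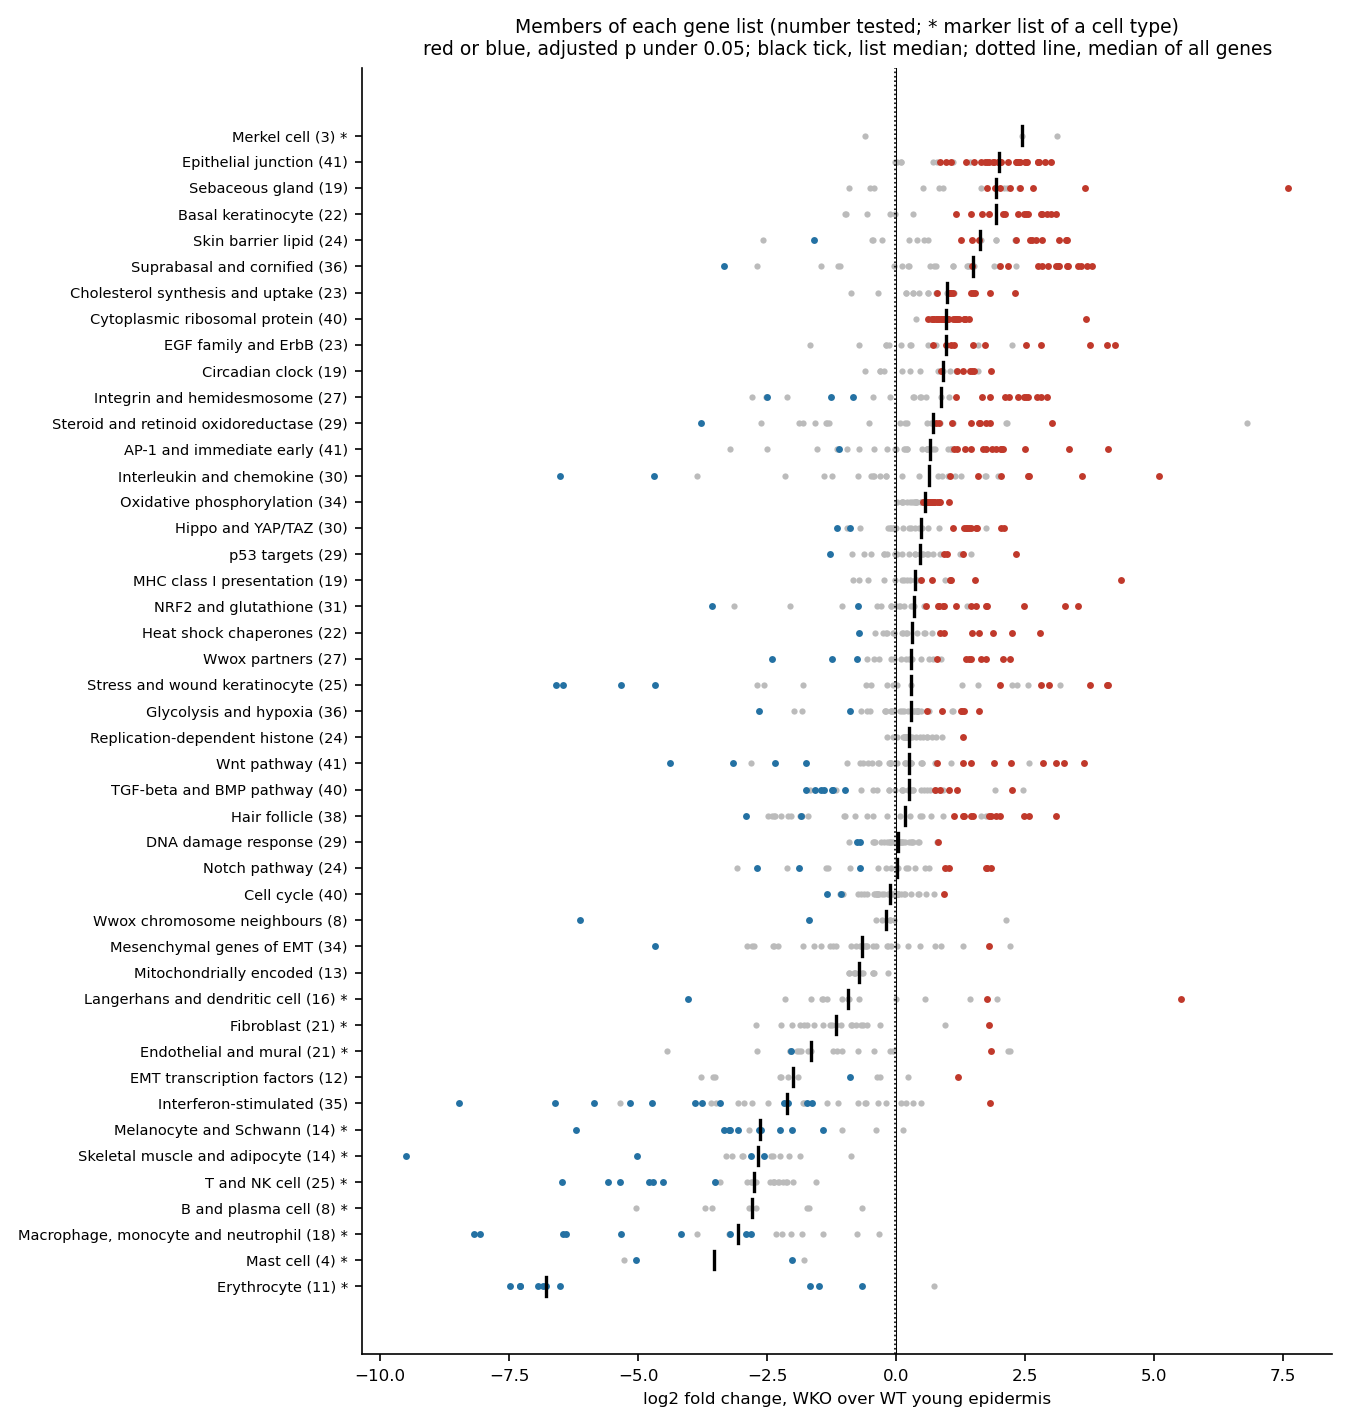
Each row is a gene list with the number of members tested, each point the log2 fold change of a member (WKO over WT), black ticks the list medians and the dotted line the median of all genes. Junction and basal keratinocyte lists have medians of 1.99 and 1.94, the ribosomal protein list has a median of 0.96 with Rps18 far above it, and the erythrocyte list has a median of -6.79.

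Cholesterol synthesis genes rose in WKO. The pathway runs from acetyl-CoA through mevalonate and squalene to cholesterol, a lipid of the skin barrier, and is controlled by SREBP2, which binds sterol regulatory elements next to the CCAAT box factor NF-Y. Of 23 members tested, 10 rose and 0 fell (43.5% called against 21.4% of all genes), with a median of 0.98 (3 to 10 with a library left out, lowest without WT 1). To show what the promoters of these genes look like, those of 3 risen members are printed from RefSeq (build GRCm38.p6), 250 bases before to 50 bases after the start of the gene, read 5′ to 3′ on the gene's own strand, with CCAAT or its reverse complement and, in Hmgcs1, the sterol regulatory element TCACNCCAC in capitals. Hmgcs1 lies at chr13:119690101-119690400, plus strand, Mvk at chr5:114444019-114444318, plus strand and Cyp51 at chr5:4104648-4104947, minus strand.
Hmgcs1: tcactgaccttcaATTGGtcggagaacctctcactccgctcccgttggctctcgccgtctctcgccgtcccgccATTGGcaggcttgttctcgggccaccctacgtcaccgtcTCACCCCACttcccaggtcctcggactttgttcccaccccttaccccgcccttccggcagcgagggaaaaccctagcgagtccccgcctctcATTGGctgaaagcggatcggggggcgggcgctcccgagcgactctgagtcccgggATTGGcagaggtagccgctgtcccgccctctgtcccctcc
Mvk: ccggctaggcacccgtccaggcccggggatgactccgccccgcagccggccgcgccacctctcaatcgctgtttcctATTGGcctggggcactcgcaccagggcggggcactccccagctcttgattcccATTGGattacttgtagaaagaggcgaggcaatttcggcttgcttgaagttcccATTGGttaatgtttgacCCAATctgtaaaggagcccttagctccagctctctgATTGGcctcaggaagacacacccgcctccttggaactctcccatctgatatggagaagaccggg
Cyp51: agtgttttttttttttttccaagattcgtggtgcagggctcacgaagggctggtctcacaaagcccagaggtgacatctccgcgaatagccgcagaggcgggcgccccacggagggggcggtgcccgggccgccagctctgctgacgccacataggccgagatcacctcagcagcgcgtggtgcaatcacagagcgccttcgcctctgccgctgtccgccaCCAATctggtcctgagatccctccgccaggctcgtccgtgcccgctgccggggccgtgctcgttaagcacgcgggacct
Hmgcs1 holds 4 copies of CCAAT and 1 sterol element, Mvk 5 copies of CCAAT and Cyp51 1. Searched on both strands, CCAAT was found in the promoters of 16 of the 16 list members with an entry, against 41.1% of 27025 genes with a promoter in the table, and TCACNCCAC in 1 of 16 against 1.44%. Of the 23 members tested only these 16 had an entry, and 7 of the 16 were called. Members that were not called thus held CCAAT as well. These matches are a description of the letters only, and the motifs were chosen after the list had been seen to rise.

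The rise took in early and late steps. Hmgcs1, which makes the precursor of mevalonate, was at 77.7, 103 and 109 CPM in WT and 159, 243 and 223 CPM in WKO, and mevalonate kinase (Mvk) at 7.03, 7.96 and 7.95 CPM in WT and 31.3, 25.0 and 25.0 CPM in WKO (log2 fold change 1.81 with an SE of 0.33, adjusted p = 0.0126). Squalene synthase (Fdft1) was at 17.1, 24.9 and 24.8 CPM in WT and 51.2, 83.9 and 57.9 CPM in WKO (log2 fold change 1.52 with an SE of 0.26, adjusted p = 0.0126). Cyp51, which removes a methyl group from lanosterol, had a log2 fold change of 1.07 (SE 0.28), Fdps 1.48, Hsd17b7 1.45, Nsdhl 1.04, Dhcr7 1.03 and Pmvk 0.79. No WT library overlapped a WKO library for any of these 9 genes. The same held for 51.6% of all genes tested and 3550 of the 3563 called genes.

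Lipid genes of the barrier and of sebaceous glands showed the same direction. In the barrier lipid list 11 of 24 rose and 1 fell (50% called against 21.4% of all genes), and in the sebaceous list 8 of 19 rose and 0 fell (42.1% called, 2 to 11 and 3 to 8 risen with a library left out, both lowest without WT 1). Acer1, an alkaline ceramidase of the epidermis, was at 2.18, 6.60 and 3.66 CPM in WT and 46.0, 37.8 and 39.1 CPM in WKO. Abca12, which loads lipid into lamellar granules, was at 6.32, 13.7 and 12.8 CPM in WT and 109, 76.1 and 108 CPM in WKO. For both genes every WKO library lay above every WT library. Ugcg, which makes glucosylceramide, fell from 48.0, 26.0 and 23.5 CPM in WT to 14.6, 7.38 and 10.5 CPM in WKO. Scd1, a desaturase of sebocytes, was at 70.8, 174 and 140.1 CPM in WT and 414, 959 and 675 CPM in WKO. Dgat2, which makes triglyceride, was at 9.32, 11.904 and 9.92 CPM in WT and 58.2, 32.3 and 54.3 CPM in WKO (log2 fold change 2.21 with an SE of 0.35, adjusted p = 0.0126). In the steroid and retinoid list, which holds enzymes of the same superfamily as Wwox, 9 of 29 rose and 1 fell (34.5% called). Dhrs3, a retinal reductase, was at 14.3, 13.3 and 21.5 CPM in WT and 53.7, 55.9 and 56.0 CPM in WKO, while Cyp26b1, which breaks down retinoic acid, fell from 69.1, 10.6 and 10.1 CPM in WT to 3.33, 1.37 and 1.85 CPM in WKO, with WT 1 highest.

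Immediate early and stress genes rose in part. In the AP-1 and immediate early list 14 of 41 rose and 1 fell (36.6% called against 21.4% of all genes), with a median of 0.66 (5 to 12 risen with a library left out, lowest without WT 2). Jun, a subunit of AP-1 and a reported partner of Wwox, was at 488, 417 and 349 CPM in WT and 1772, 862 and 1582 CPM in WKO (log2 fold change 1.74 with an SE of 0.30, adjusted p = 0.0126). Fos was at 715, 377 and 250.3 CPM in WT and 2551, 1202 and 1764 CPM in WKO and Fosl1 at 3.65, 2.31 and 0.677 CPM in WT and 37.3, 42.2 and 36.4 CPM in WKO, and all 3 genes were higher in every WKO library. Klf4, a factor of barrier formation, and Myc rose by 2.06 and 2.49. Divided by Krt14, Jun was 1.26, 0.866 and 0.664 in WT and 0.688, 0.165 and 0.468 in WKO, which overlap and run lower in WKO (exact two-sided permutation p = 0.2).

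Of the heat shock chaperones, 7 of 22 rose and 1 fell (36.4% called against 21.4% of all genes). Hspb1 was at 27.8, 38.1 and 34.0 CPM in WT and 249, 168 and 278 CPM in WKO. Hspa1a, the inducible Hsp70, was at 84.3, 76.2 and 74.3 CPM in WT and 349.9, 189.7 and 328 CPM in WKO. Dnaja1 was lower (149, 184 and 158 CPM in WT against 115, 110.3 and 74.3 CPM in WKO). In the NRF2 and glutathione list 13 of 31 rose and 2 fell (48.4% called). Catalase (Cat) was at 43.8, 44.8 and 60.2 CPM in WT and 146, 161 and 198 CPM in WKO (log2 fold change 1.76 with an SE of 0.33, adjusted p = 0.0126), while Slc7a11, the cystine importer that NRF2 controls, fell from 47.3, 8.71 and 10.1 CPM in WT to 1.56, 1.91 and 2.14 CPM in WKO. With a library left out, 4 to 6 chaperones and 3 to 13 NRF2 and glutathione genes rose.

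Ligands and receptors of the EGF family rose in part. In the list 11 of 23 members rose and 0 fell (47.8% called against 21.4% of all genes), with a median of 0.96 (2 to 9 with a library left out, lowest without WT 1). Hbegf, a heparin-binding ligand of keratinocyte wound responses, was at 4.36, 5.85 and 3.04 CPM in WT and 71.4, 46.8 and 61.2 CPM in WKO (log2 fold change 3.75 with an SE of 0.58, adjusted p = 0.0126). Epgn (epigen) was at 0.436, 0.816 and 0.733 CPM in WT and 9.66, 14.8 and 9.27 CPM in WKO and Areg (amphiregulin) at 2.40, 5.10 and 0.902 CPM in WT and 23.7, 10.7 and 24.7 CPM in WKO, all without overlap. Among the receptors, Egfr, Erbb2 and Erbb3 rose by 0.96, 1.71 and 1.48. In the stress and wound list (40% called) 6 of 25 rose, among them Krt17 (84.5, 194 and 134 CPM in WT against 598, 639.6 and 447 CPM in WKO) and Cst6, and 4 fell. The fallen members were S100a8, S100a9, Plaur and Ifitm1, which neutrophils and monocytes also express and which were highest in WT 1; S100a9 was at 108, 4.63 and 3.95 CPM in WT and 0.612, 0.137 and 0.57 CPM in WKO.

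Reported partners of the Wwox protein were read as a group. Of 27 tested, 8 rose and 3 fell, or 40.7% called against 21.4% of all genes, with a median of 0.29 (2 to 8 risen with a library left out, lowest without WKO 2). Trp63, the master factor of stratified epithelia, was at 63.0, 156 and 190.3 CPM in WT and 498, 542 and 676 CPM in WKO (log2 fold change 2.07 with an SE of 0.48, adjusted p = 0.0183). Its relative Trp73 was at 2.67, 2.72 and 3.83 CPM in WT and 10.1, 18.2 and 14.7 CPM in WKO, and Tfap2c, an epidermal AP-2 factor, at 17.9, 24.2 and 26.1 CPM in WT and 64.6, 84.8 and 64.6 CPM in WKO. Yap1 and Wwtr1, the transcription coactivators at the end of the Hippo pathway, were at 32.5, 52.5 and 63.7 CPM in WT against 114, 143 and 149 CPM in WKO and 15.6, 16.9 and 26.7 CPM in WT against 42.0, 55.2 and 54.2 CPM in WKO. The fallen partners were Itch, a ubiquitin ligase, from 79.2, 66.8 and 59.9 CPM in WT to 39.0, 41.0 and 41.8 CPM in WKO, Smad3, and Runx2, a factor of bone and of T cells, from 47.4, 35.3 and 28.5 CPM in WT to 12.9, 4.79 and 3.64 CPM in WKO. For each of these genes the groups of libraries did not overlap, as was so for 51.6% of all genes tested.

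Signalling pathways were mixed. In the Hippo list 10 of 30 rose and 2 fell (40% called against 21.4% of all genes, 0 to 10 risen with a library left out, 0 without WT 1). Ajuba and Ptpn14 were among the risen and the kinases Lats2 and Stk4 among the fallen, Lats2 from 63.7, 46.8 and 43.1 CPM in WT to 32.4, 23.1 and 27.4 CPM in WKO. In the Wnt list 9 of 41 rose and 4 fell (31.7% called). The epidermal ligands Wnt3, Wnt7b and Wnt10a were higher, Wnt7b at 2.34, 5.85 and 7.33 CPM in WT and 43.3, 57.4 and 48.0 CPM in WKO. Lef1, a nuclear partner of beta-catenin in hair matrix and T cells, fell from 55.3, 100.3 and 58.9 CPM in WT to 15.8, 6.43 and 1.92 CPM in WKO (log2 fold change -3.16 with an SE of 0.79, adjusted p = 0.0224), and Notum, a secreted Wnt inhibitor, from 34.5, 10.3 and 20.3 CPM in WT to 2.31, 0.615 and 0.214 CPM in WKO.

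In the Notch list 5 of 24 rose and 3 fell (33.3% called against 21.4% of all genes). Notch3 and the ligands Jag2 and Dll1 were higher, Jag2 at 26.4, 59.5 and 70.7 CPM in WT and 132, 225 and 176 CPM in WKO, while Notch4 and Rbpj, the DNA-binding factor of the pathway, were lower. In the TGF-beta and BMP list 5 of 40 rose and 7 fell (30% called). The type I receptor gene Tgfbr1 was at 59.9, 51.7 and 45.8 CPM in WT and 20.3, 16.9 and 16.3 CPM in WKO (log2 fold change -1.57 with an SE of 0.21, adjusted p = 0.0126) and Tgfb1 at 112, 51.6 and 43.6 CPM in WT and 29.7, 20.7 and 11.98 CPM in WKO, both lower in all WKO libraries. Id1, a target of BMP signalling, went up (12.8, 25.0 and 16.6 CPM in WT against 121, 47.9 and 91.5 CPM in WKO) and Id2 went down (95.1, 73.9 and 78.8 CPM in WT against 49.4, 22.4 and 23.2 CPM in WKO). With a library left out the risen and fallen counts were 0 to 5 and 0 to 3 for Notch and 1 to 5 and 1 to 8 for TGF-beta.

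The study's title names the epithelial to mesenchymal transition (EMT). Of 12 tested EMT transcription factors, 1 rose and 1 fell, or 16.7% against 21.4% of all genes, with a median of -2.005. Snai2, which basal keratinocytes express, rose from 8.51, 9.86 and 17.1 CPM in WT to 18.8, 30.3 and 32.3 CPM in WKO (log2 fold change 1.19 with an SE of 0.37, adjusted p = 0.0431), and Tcf4 fell from 76.7, 42.0 and 53.3 CPM in WT to 30.8, 22.5 and 39.4 CPM in WKO. Zeb1 and Zeb2, which mesenchymal cells, T cells and macrophages carry, were at 47.7, 37.5 and 36.3 CPM in WT against 20.2, 2.94 and 2.64 CPM in WKO and 255, 82.1 and 62.2 CPM in WT against 24.3, 1.57 and 3.78 CPM in WKO, with no overlap but adjusted p of 0.102 and 0.0866. Of 34 mesenchymal genes, 1 rose (Postn) and 1 fell (Plaur), or 5.88%, with a median of -0.66. With a library left out, 0 to 1 mesenchymal genes rose and 0 to 4 fell.

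Growth and genome maintenance genes gave few calls. In the cell cycle list 1 of 40 rose and 2 fell, 7.5% of 40 against 21.4% of all genes, with a median of -0.11. Ccnd1, the cyclin that mitogens induce, was at 24.9, 41.4 and 31.6 CPM in WT and 47.8, 81.2 and 56.5 CPM in WKO (log2 fold change 0.92 with an SE of 0.27, adjusted p = 0.0364), while Ccnd3 fell from 85.3, 53.6 and 42.7 CPM in WT to 29.5, 21.4 and 21.7 CPM in WKO and the centromere histone gene Cenpa from 11.1, 14.2 and 9.53 CPM in WT to 6.19, 6.97 and 3.42 CPM in WKO. In the DNA damage response list 1 of 29 rose (Nbn) and 2 fell (Atr, a checkpoint kinase, and Itch), 10.3% called. Of the p53 targets, 4 of 29 rose and 1 fell, a smaller share than the 21.4% of all genes. Perp, a p53 target that is also a desmosome component, was at 149, 336 and 358 CPM in WT and 1293, 1384 and 1549.6 CPM in WKO, and Sesn1, a stress-induced sestrin, at 23.6, 24.6 and 28.4 CPM in WT and 57.9, 42.5 and 88.7 CPM in WKO (log2 fold change 1.30 with an SE of 0.25, adjusted p = 0.0128). The replication histone list gave 1 of 24 risen, 4.17%.

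Glycolysis genes were called about as often as all genes (22.2% against 21.4%), with 6 of 36 risen and 2 fallen. Slc2a1, the main glucose carrier of keratinocytes, was at 45.7, 21.2 and 26.0 CPM in WT and 61.8, 87.0 and 82.2 CPM in WKO. Pdk1, which holds back entry of pyruvate into mitochondria, was at 12.7, 14.9 and 10.99 CPM in WT and 33.6, 38.6 and 45.3 CPM in WKO (log2 fold change 1.599 with an SE of 0.28, adjusted p = 0.0126). Slc2a3, a glucose carrier of leukocytes and neurons, fell from 24.5, 12.7 and 6.48 CPM in WT to 3.40, 1.91 and 1.64 CPM in WKO. Clock genes had 7 of 19 risen and 0 fallen, 36.8% called. Among them were the PAR-domain factors Dbp, Tef and Hlf, with Dbp at 28.3, 21.6 and 32.6 CPM in WT and 63.9, 91.6 and 67.0 CPM in WKO (log2 fold change 1.42 with an SE of 0.26, adjusted p = 0.0126), and the repressor Cry2 at 18.3, 14.8 and 18.5 CPM in WT and 40.2, 51.8 and 54.9 CPM in WKO. The groups did not overlap for either gene.

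Hair follicle genes split: 12 of 38 rose and 2 fell (36.8% called against 21.4% of all genes). Gata3, a factor of the inner root sheath, and Krt79, a keratin of the follicle opening, were higher, Krt79 at 75.8, 203 and 125 CPM in WT and 732, 883 and 654 CPM in WKO. Krt75, a keratin of the companion layer, fell from 13.7, 47.5 and 57.3 CPM in WT to 5.03, 9.16 and 1.57 CPM in WKO, and Msx2, of the hair matrix, fell from 9.27, 33.3 and 33.5 CPM in WT to 9.999, 7.93 and 3.49 CPM in WKO, although WT 1 lay below WKO 1. Lef1 divided by Krt14 (times 1000) was 143, 208 and 112 in WT and 6.15, 1.23 and 0.569 in WKO. It was 3.3, 2.56 and 69.9 in PKO young and 4.09 and 12.8 in old WT. Lef1 was lower and Krt14 higher in every WKO library, so this ratio had to separate WKO from WT. Its exact two-sided permutation p of 0.1, the smallest possible, was thus fixed beforehand and adds nothing to the 2 genes.

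Interferon-stimulated genes were lower in 12 of 35 and higher in 1 of the list (37.1% called against 21.4% of all genes), but the list sum was 2806, 498.4 and 341.9 CPM in WT and 317.1, 571.6 and 377.2 CPM in WKO. WT 1 alone stood high, and the lower calls numbered 2 without WT 1, 0 without WKO 2, 1 without WKO 3, 6 without WKO 1 and 19 without WT 3. Ifit3 was at 186, 12.3 and 2.48 CPM in WT and 1.22, 0.479 and 0.356 CPM in WKO and Irf7, a factor that amplifies interferon, at 187, 21.8 and 8.40 CPM in WT and 4.42, 6.77 and 4.99 CPM in WKO. The risen member was Ifi27 (6.65, 7.69 and 6.88 CPM in WT against 19.5, 29.9 and 25.4 CPM in WKO). In the interleukin and chemokine list (30% called) 7 of 30 rose, among them Il34, which sustains Langerhans cells (2.02, 4.01 and 5.30 CPM in WT against 49.4, 43.1 and 46.5 CPM in WKO), and Il7, which T cells need, and 2 fell, Il1b and Ccl5. Genes of MHC class I presentation gave 6 of 19 risen and 0 fallen, 31.6% called, with H2-K1 at 515, 368 and 338 CPM in WT and 551, 748 and 678 CPM in WKO. The labels give no strain for either group, and for these genes strain and loss of Wwox cannot be told apart.

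With a library left out, the risen members numbered 2 to 10 for Wnt, 1 to 6 for glycolysis, 3 to 7 for the clock, 3 to 10 for the hair follicle, 3 to 10 for steroid and retinoid enzymes, 2 to 8 for interleukins and chemokines, 1 to 6 for MHC class I and 1 to 3 for p53 targets.

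Some gene classes outside these lists leaned one way. Among 202 tested olfactory and vomeronasal receptor genes, best known from sensory neurons of the nose, 2 rose and 60 fell, or 29.7% lower against 8.34% of all genes, and their summed level was 1295, 1594 and 1642 CPM in WT and 657, 429 and 689 CPM in WKO. Of 804 long intergenic and antisense RNA genes 23 rose and 90 fell, 2.86% against 13.1% and 11.2% against 8.34% of all genes. Called genes also differed in structure: the median transcript was 2959 bases long with 51.7% GC for risen genes and 4081 bases with 47% GC for fallen genes, against 3219 bases and 49.3% for all. Of 25 Hox genes, which mark body position, 7 rose and 0 fell, 28% higher against 13.1% of all genes. All but Hoxb7 came from the Hoxa cluster (Hoxa2, Hoxa3, Hoxa4, Hoxa5, Hoxa6 and Hoxa7), so the count is mostly that of a single locus. Several were near the floor, such as Hoxa6 with means of 0.28 CPM in WT and 1.46 CPM in WKO. No Hoxc or Hoxd gene was called. These classes were looked at after the values were seen.

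Whether Wwox loss acts differently with and without p53 was asked as the difference between WKO against WT and DKO against PKO. No gene passed the threshold (0 of 16627, 0%, in edgeR, with 3382 at an unadjusted p under 0.05), the smallest adjusted p was 0.111, while DESeq2 called 1326 and limma voom 708. The count rose to 1199 without PKO young 3 and to 452 without the 3 libraries that kept a gene their label gives as deleted. The smallest p among risen effects belonged to Mettl7b, Dbp, Gpld1, Ddt and Acp5. Dbp, the clock output factor, was at 28.3, 21.6 and 32.6 CPM in WT, 63.9, 91.6 and 67.0 CPM in WKO, 71.4, 34.6 and 49.3 CPM in PKO and 26.6, 27.4 and 28.2 CPM in DKO, a log2 difference of effects of 2.35 (SE 0.37, adjusted p = 0.111). Every WKO library lay above every WT library, and every DKO library below every PKO library. Mettl7b, at 0.164, 0.136 and 0.564 CPM in WT against 8.98, 12.9 and 9.12 CPM in WKO, was at 5.04, 1.34 and 1.53 CPM in PKO and 0.925, 0.653 and 1.59 CPM in DKO. On the other side stood the receptor genes Vmn1r76, Olfr1247 and Olfr639 with Arid3a and Fbxo30, with log2 differences from -2.77 to -1.52.

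Set directly against PKO young epidermis, WKO differed in 1 gene of 16627 (0.00601%; 1169 at an unadjusted p under 0.05, 63 called by DESeq2, and 4 without DKO young 1). That gene, Rpl26, a ribosomal protein gene outside the rule for named genes, was at 49.5, 59.0 and 54.1 CPM in WKO, 769, 471 and 586 CPM in PKO, 886, 656 and 548 CPM in DKO and 28.6, 31.0 and 39.0 CPM in WT (adjusted p = 0.000939 for WKO against PKO). In RefSeq it lies 0.68 Mb from Trp53 with 60 genes between. The next genes by p, all at an adjusted p of 0.697, were Serpina3i, Sesn1, Map9, Gdpd3 and Serpina3h, with positive differences, and Alpk2, Suco, Rassf1, Vps37b and Smn1, with negative ones; none of the 10 passed the threshold. Sesn1, from the p53 target list, was at 57.9, 42.5 and 88.7 CPM in WKO and 26.7, 25.4 and 25.5 CPM in PKO. It was picked for its small p in this contrast, so its lack of overlap adds nothing. Other p53 targets, Perp, Ei24, Phlda3 and Plk2, had log2 differences of 0.49, 0.49, 0.36 and -0.51, none of them past the threshold. Both comparisons share the WKO libraries, and neither result is independent of the comparison with WT.

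**Figure D5:**
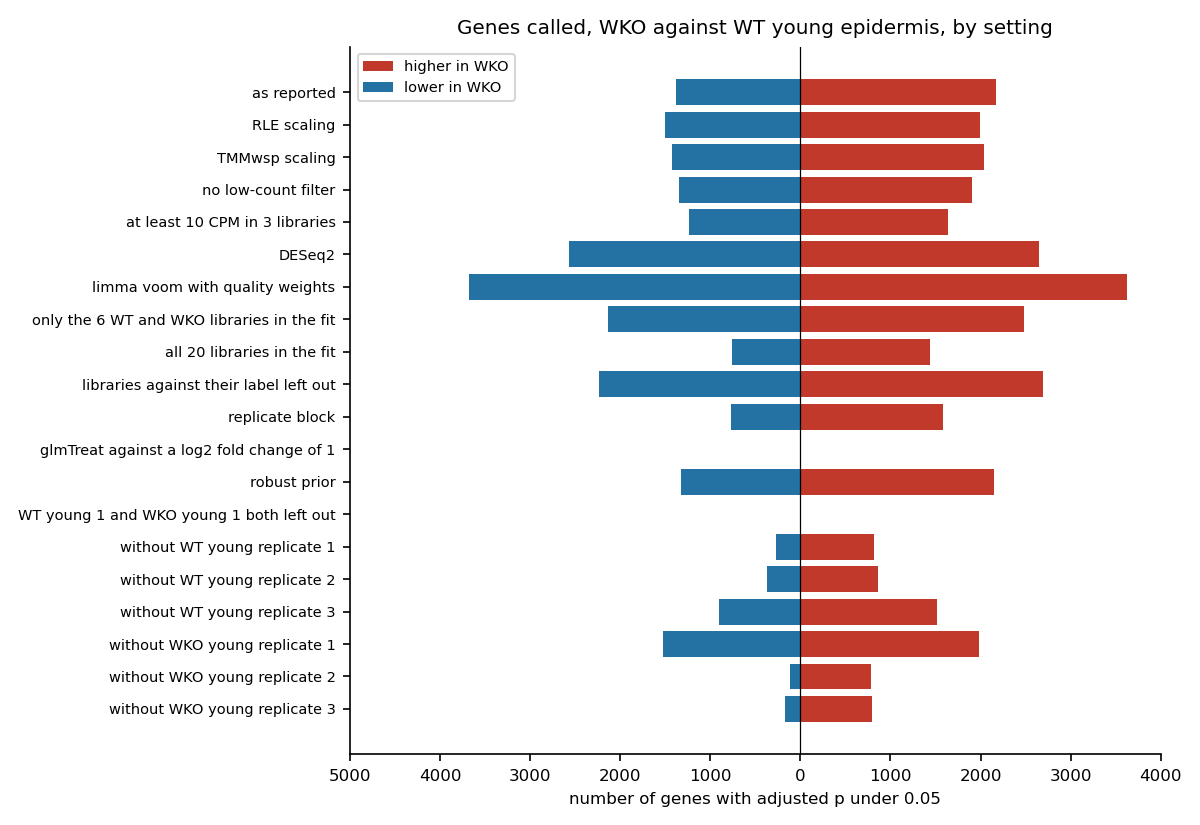
Bars give the number of genes called at an adjusted p under 0.05, higher in WKO to the right and lower to the left, for the result as reported and for each alternative. The reported 2177 and 1386 calls fall to 781 and 112 without WKO 2 and to 0 under a test against a 2-fold change and with WT 1 and WKO 1 both left out.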

How the data were processed

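Per the labels, RNA of sorted tdTomato-positive cells was made into stranded total RNA libraries with a low-input kit, and per the submitters' processing notes the tools included Trim Galore 0.4.1, FastQC 0.11.5, Salmon 0.13.1 and DESeq2 1.28.1, with build mm39. The authors deposited expected counts (estimated counts, already whole numbers) for 51123 gene identifiers in 20 libraries; the 37 values of 7 or more digits are all multiples of 10. The sources used here do not say how transcripts were summed to genes. Estimated counts of near-identical copies are uncertain.

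The quasi-likelihood F test of edgeR 4.0.16 in R 4.3.3 was fitted to the 12 young libraries together, after filterByExpr and TMM scaling (16627 genes, 8 residual degrees of freedom), with Benjamini-Hochberg adjustment at 0.05. The other 6 libraries of young epidermis share in the estimate of the spread. CPM shown are scaled by TMM over all 20 libraries. The step was also run on simulated counts, in which few genes changed and no library deviated. These data differ from that setting, so the run checks only that the code works and returns the right sign. Exact permutation tests over libraries were two-sided.

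The comparison, the 34 pathway lists and 12 marker lists and the tests were chosen with earlier results of these data known. Named genes are Wwox and Trp53, the 12 largest changes each way among called genes with non-overlapping groups and a mean of 5 CPM or more where higher (predicted, immune receptor, mitochondrial, ribosomal, histone, sex-linked and small RNA genes excepted), the 8 most abundant each way, up to 6 members per list with the smallest p, and for the other 2 contrasts the 5 smallest p each way; others named were chosen after their values were seen. A few genes that the rule picks are not reported here. Promoters and gene order came from RefSeq for GRCm38.p6, matched by symbol, since no mm39 sequence was used here. Alternatives were RLE and TMMwsp scaling, other filters, DESeq2 1.42.0, limma 3.58.1 with voom and weights for library quality, fits on fewer or more libraries, a replicate block, a test against a 2-fold change, and each library left out. A robust prior and the removal of WT 1 with WKO 1 were chosen once the data had been seen.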

Additional observations from a re-analysis of the deposited data

Results flagged for a closer look

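Groups of 3 libraries are too small for the check on single outlying samples. For 9 of the 287 named genes every WKO library lay on one side of the WT libraries and every DKO library on the other side of the PKO libraries. The share of all tested genes with this pattern was not counted, so the 9 cannot be set against a background. Dbp, the clock output factor, gave a log2 difference of effects of 2.35 (adjusted p = 0.111). Ccnd1 was at 24.9, 41.4 and 31.6 CPM in WT, 47.8, 81.2 and 56.5 CPM in WKO, 68.5, 44.2 and 40.0 CPM in PKO and 33.8, 38.9 and 37.4 CPM in DKO, a log2 difference of 1.4. Uqcrc2, a subunit of complex III, was at 27.5, 28.6 and 35.9 CPM in WT, 44.0, 51.5 and 46.4 CPM in WKO, 44.1, 39.9 and 39.0 CPM in PKO and 34.5, 29.2 and 36.1 CPM in DKO, a difference of 0.929. For Ddt the difference was 1.57, with WT and DKO low and WKO and PKO higher. In the other direction, with WKO below WT and DKO above PKO, Vmn1r76 gave -2.67, Olfr1247 -2.77, Olfr639 -2.72, Arid3a -1.82 and Fbxo30 -1.52. Of these genes all but Ccnd1 and Uqcrc2 were named for their small p in this contrast. None of the 9 passed the threshold for a difference of effects, and 2 of the PKO libraries and 1 of the DKO libraries kept a gene that their label gives as deleted.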

How the results depend on the processing

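The 3563 calls (2177 higher, 1386 lower) were within 1.5 times of that number under RLE and TMMwsp scaling, no filter, a minimum of 10 CPM and a robust prior. They were 7304 (3623 and 3681) by limma voom, 2199 (1435 and 764) with all 20 libraries in the fit, and 0 (0 and 0) both against a 2-fold change by glmTreat and without WT 1 and WKO 1, which leaves 2 against 2. DESeq2 gave 2571 lower genes, a fit of only the 6 libraries 2132, and the fit without libraries against their labels 2232. The replicate block gave 2355 calls with 774 lower; deviations of same-numbered libraries correlated by 0.221, 0.102 and 0.044, so the numbers were not taken as pairing the libraries. Leaving out 1 library gave 893 to 3513 calls, 781 to 1988 higher and 112 to 1525 lower. WKO against PKO had 1 call, 4 without the filter, 63 by DESeq2, 14 without libraries against their labels, 1 to 2 with a WKO or PKO library left out and 4 without DKO young 1. The difference of effects had 0 calls, 13 without the filter, 1326 by DESeq2, 708 by limma voom, 452 without libraries against their labels, 0 to 1199 with a library left out, and 0 with the replicate block. The Wwox difference was -8.48 CPM, -9.884 CPM without scaling factors, and -8.785 to -8.124 CPM with a library left out. The cause of these changes was not tested.

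Of 287 named genes, 229 were called in the main fit. All 229 lost their call against a 2-fold change and with WT 1 and WKO 1 both left out. Of the 229, 115 lost it without WT 1, 83 without WT 2, 39 without WT 3, 16 without WKO 1, 124 without WKO 2 and 115 without WKO 3. No called gene among the named ones changed sign under any alternative run. Among those not called, the sign turned or the value went to 0 for Cmip (log2 fold change 0.0317 without WT 1 and 0.0733 without WT 1 and WKO 1, range -0.457 to 0.0317 with a library left out), Maf (0.0309 without WT 1, range -0.286 to 0.0309), Mcpt4 (0 without WT 2, range -2.25 to 0) and Ltc4s (-0.434 without WKO 1 and -0.6999 without both, range -0.434 to 2.495). With 3 libraries a group and Wwox at 2 to 19 counts in WKO, depth limits how far its residual level can be resolved.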

Other observations

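Several genes near each other in the major histocompatibility complex, and a few ribosomal protein copies, differed between WT and WKO. They were chosen after their values were seen. The labels give no strain for either group, so strain and loss of Wwox cannot be told apart for these genes. H2-T22, a class I-like gene, was at 3.87, 2.99 and 3.44 CPM in WT, 61.3, 65.2 and 86.5 CPM in WKO, 11.2, 12.2 and 6.17 CPM in PKO and 101, 10.4 and 16.0 CPM in DKO. H2-Q1 was at 10.6, 8.23 and 4.74 CPM in WT and 0, 4.58 and 0 CPM in WKO, where WKO 2 came close to the lowest WT library (adjusted p = 0.284). The class II pseudogene H2-Ea-ps was at 6.05, 3.33 and 3.33 CPM in WT and 0.136, 0.273 and 0 CPM in WKO. Of 31 tested genes with an H2 symbol 7 rose and 2 fell, 29% against 21.4% of all genes. Rps18, which in RefSeq lies 0.044 Mb from H2-K1, was at 32.6, 36.6 and 38.3 CPM in WT, 537, 345 and 499.8 CPM in WKO, 46.9, 69.1 and 40.1 CPM in PKO, 552, 55.2 and 131 CPM in DKO and 39.0 and 179 CPM in old WT.

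The pseudogene Rpl34-ps1 had 0 counts in all WT young libraries and 295, 304 and 276 CPM in WKO. That is at least 4890-fold higher, with the WT mean set to 3 counts in its 3 libraries. The level was 134, 0 and 132 CPM in PKO, 313, 236 and 39.0 CPM in DKO and 149.6 and 183 CPM in old WT. Rps7 was at 173, 223 and 213 CPM in WT and 756, 689 and 587 CPM in WKO. Near-identical copies can share reads, and the part of this in these values was not tested.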
